A study of Mus musculus with 2 samples.

Results

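The 9 genes described here are the SMAD mediators and TGF-β feedback targets Smad1, Smad2, Smad3, Smad4, Smad5, Smad6, Smad7, Smad9 and Pmepa1, taken by gene symbol from the 32287 features of the dataset. Their transcripts were counted by single-cell RNA sequencing of the thoracic aortas of 2 wild-type mice (C57BL/6J, genotype GFPiSMC, 12 weeks of age, 1 group, n = 2). Both carried an inducible Cre recombinase under the Myh11 promoter, which turns a membrane reporter of tdTomato into one of eGFP where that promoter is active, chiefly smooth muscle cells (SMCs). Tamoxifen (1 mg/d, 5 days) was given to both at 3 weeks. Sex was male per the study's methods. Viable single cells were sorted from cold digests without selection for GFP, so the libraries hold the other cells of the aortic wall as well. The study deleted TGF-β receptors from SMCs in other mice, and these 2 aortas carry no such deletion, so the comparisons are between cell types of the normal wall.

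SMADs carry signals of the TGF-β family from the cell surface to the nucleus. Receptors for TGF-β and activins phosphorylate SMAD2 and SMAD3, receptors for bone morphogenetic proteins (BMPs) phosphorylate SMAD1, SMAD5 and SMAD9, and both sets then bind the common mediator SMAD4. SMAD6 and SMAD7 are inhibitory SMADs that compete for receptors and partners and recruit ubiquitin ligases. PMEPA1 is a membrane protein that sequesters SMAD2 and SMAD3. Smad6, Smad7 and Pmepa1 are themselves induced by the pathway, and each can limit it.

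Each level is in CPM, the unique molecular identifiers (UMIs, counted RNA molecules) of a gene scaled to all UMIs in the summed cells of 1 type from 1 aorta. Values given as mean ± SD are over the 2 aortas. After filtering and doublet removal 6539 and 4614 cells remained, and 29 clusters made without the 9 genes gave 7 types named from markers. SMCs were the largest, with 2353 and 1697 cells and 17399524 and 12094857 UMIs, followed by fibroblasts (1506 and 1056 cells), myeloid cells (911 and 566), endothelial cells (785 and 730), lymphocytes (622 and 363) and mesothelial cells (275 and 158). Clusters with 64 and 31 cells in all stayed unnamed. Of 45 markers, 44 were highest in their own type, which is largely built in, as the same markers named the clusters. The exception was the endothelial marker Kdr, which was higher in mesothelial cells (323 and 245 CPM) than in endothelial cells (67.1 and 85.8 CPM). Erythroid cells (23 and 13) held 2 and 1 Smad UMIs in all, where 3 UMIs correspond to 19.3 and 32.0 CPM. They held 15 Pmepa1 UMIs in aorta 1 (96.5 CPM) and 0 in aorta 2. No further level is given for them.

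Promoter sequence was available for 5 of the 9 genes (Smad1, Smad3, Smad5, Smad6 and Smad9) in a table of RefSeq start sites on GRCm38.p6 holding 300 bases per start site, 250 before and 50 after it. The windows of Smad6 and Smad9 are shown because these 2 genes had the widest range among the cell types (Smad9 with types at 0 UMIs). Each runs 5′ to 3′ on the gene's own strand from 250 bases before the start site to 20 bases after it, and capitals mark the motif named. In Smad6 (chr9:64022040-64022309, minus strand) the capitals mark GTCTAGAC, the palindromic SMAD-binding element, which lies across the start site. In Smad9 (chr3:54755332-54755601, plus strand) they mark GGCGCC, a GC-rich element bound by SMAD1 and SMAD5, which begins 51 bases before the start site.
Smad6: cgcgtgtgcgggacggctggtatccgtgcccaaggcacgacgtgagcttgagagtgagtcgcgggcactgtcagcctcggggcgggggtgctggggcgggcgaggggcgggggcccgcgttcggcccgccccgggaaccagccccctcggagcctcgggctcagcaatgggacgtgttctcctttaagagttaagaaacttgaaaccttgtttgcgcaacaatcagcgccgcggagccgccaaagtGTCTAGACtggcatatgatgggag
Smad9: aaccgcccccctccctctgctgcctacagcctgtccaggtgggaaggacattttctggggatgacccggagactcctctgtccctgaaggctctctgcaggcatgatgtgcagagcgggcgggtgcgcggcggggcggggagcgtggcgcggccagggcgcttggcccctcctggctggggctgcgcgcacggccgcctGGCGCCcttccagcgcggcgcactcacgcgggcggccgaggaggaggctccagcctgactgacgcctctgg

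Searched on both strands over the full 300 bases, GTCTAGAC stood in 70 of 32851 mouse promoter windows (0.213%). Among the members with a window it stood only in Smad6. Smad2, Smad4, Smad7 and Pmepa1 had no window and were not searched. GGCGCC stood in 11.9% of all windows, once in Smad9 and once in 2 of the 3 Smad5 windows. The shorter core CAGAC, 49.6% of all windows, was found in 1 Smad5 window and in none of Smad1, Smad3, Smad6 or Smad9. These matches describe letters only, and no binding was measured.

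All 9 genes had enough UMIs to be tested, and all 9 differed among the 7 cell types (edgeR quasi-likelihood F test with Benjamini-Hochberg adjustment, adjusted p from 1.15e-15 for Pmepa1 to 0.00873 for Smad4). This count has to be read against a background of 92.6% of the 13971 genes tested. Of the 9, Smad4 did not pass without the erythroid cells, and its adjusted p reached 0.116 over the alternatives run. Smad2 did not pass with at least 5000 UMIs per cell (adjusted p = 0.0599). Between neighbouring types in the order of levels, 25 of 45 steps did not pass the test. That order is by CPM, whereas edgeR scales the sums differently, so a step can have the opposite sign there. Smad9 was higher in mesothelial cells than in SMCs by CPM but 0.13 ± 0.28 higher in SMCs by edgeR (log2, ± SE). For Smad4, edgeR put endothelial cells only 0.002 ± 0.13 above SMCs. The plot of levels by cell type shows that the genes fall into different orders, with Pmepa1 and Smad9 high in SMCs, Smad3 and Smad5 high in fibroblasts, and Smad6 and Smad7 high in endothelial cells.

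**Figure D1:**
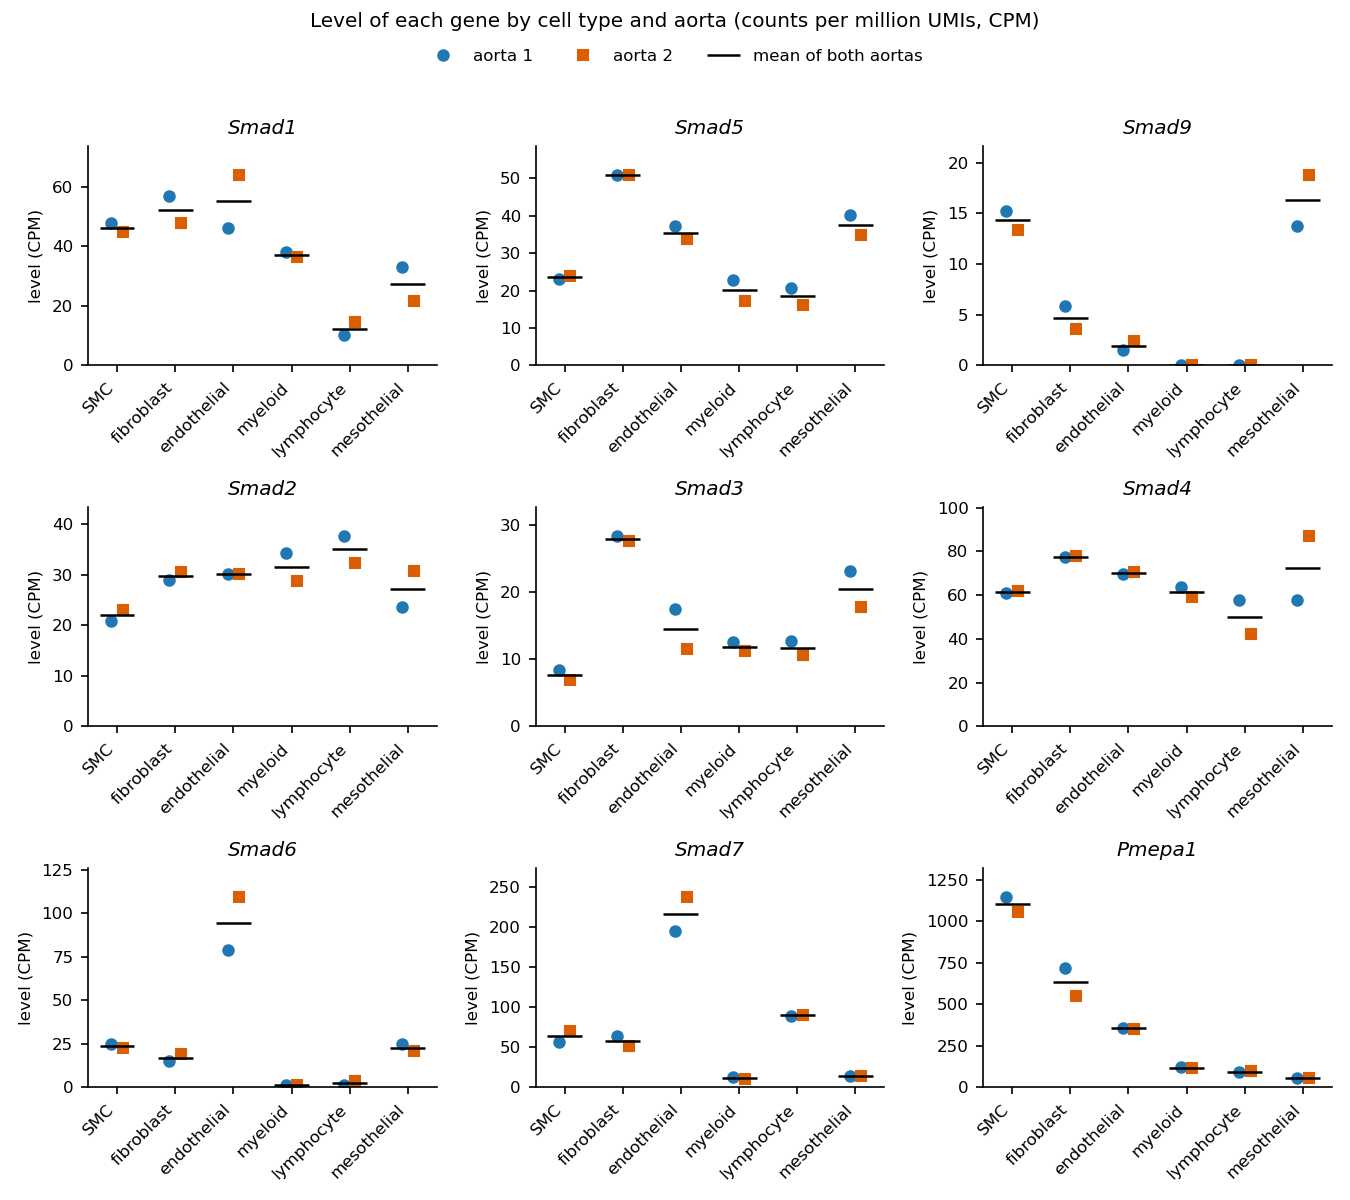
Level of each gene (y axes, CPM, each starting at 0) in 6 cell types (x axes), with circles for aorta 1, squares for aorta 2 and a line for their mean. Smad6 and Smad7 stand highest in endothelial cells, Pmepa1 in SMCs, and Smad9 lies at 0 in myeloid cells and lymphocytes.

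Among the SMADs of the BMP branch, Smad9 had the narrowest distribution. Smad9 (chr3:54755582-54801257, GRCm38, plus strand) stood at 15.3 and 13.4 CPM in the SMCs of aortas 1 and 2, at 13.8 and 18.8 CPM in mesothelial cells, at 5.83 and 3.56 CPM in fibroblasts and at 1.57 and 2.37 CPM in endothelial cells. No Smad9 UMI was counted in 5811108 and 3471584 UMIs of myeloid cells or in 2997071 and 1797215 UMIs of lymphocytes. The SMC and mesothelial ranges overlapped (adjusted p = 0.744), and both lay above all other types. Smad9 was 1.63 ± 0.23 higher in SMCs than in fibroblasts on the log2 scale (± SE, adjusted p = 6.37e-06), and 3.07 ± 0.37 higher than in endothelial cells (adjusted p = 7.37e-07). Against a limit of 3 UMIs per library, SMCs were at least 16.6-fold higher than myeloid cells and at least 8.59-fold higher than lymphocytes.

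Smad1 (chr8:79338395-79399518, minus strand) was spread more evenly. It stood at 47.8 and 44.7 CPM in SMCs, 56.8 and 47.8 CPM in fibroblasts and 46.1 and 64.1 CPM in endothelial cells, and none of the 3 pairs among these types passed the test (adjusted p = 0.470 for SMCs against fibroblasts, 0.838 for SMCs against endothelial cells and 0.727 for endothelial cells against fibroblasts). Lymphocytes were the low end at 10.3 and 14.5 CPM, below mesothelial cells at 33.1 and 21.8 CPM (adjusted p = 0.00593). Myeloid cells held 38.2 and 36.3 CPM, above mesothelial cells (adjusted p = 0.00693) but not past the test against SMCs (adjusted p = 0.227).

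Smad5 (chr13:56703010-56742377, plus strand) was highest in fibroblasts, at 50.8 and 50.9 CPM, and the aortas nearly coincided. It was lower in mesothelial cells (40.2 and 34.7 CPM) and endothelial cells (37.3 and 33.6 CPM), which overlapped each other, and lower again in SMCs (23.1 and 24.0 CPM). Fibroblasts exceeded SMCs by 1.05 ± 0.12 on the log2 scale (adjusted p = 1.07e-07). SMCs, myeloid cells (20.1 ± 3.96 CPM) and lymphocytes (18.4 ± 3.22 CPM) formed a low group whose neighbours did not pass the test. The ratio of Smad1 to Smad5 UMIs was therefore 2.07 and 1.87 in SMCs but 1.12 and 0.939 in fibroblasts. Such ratios compare 2 genes with unknown capture efficiency, although 3′ counting gives 1 UMI per captured RNA molecule irrespective of transcript length.

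In the TGF-β branch the members differed from each other in how far they varied. Smad3 (chr9:63646767-63757994, minus strand) was lowest in SMCs, at 8.33 and 6.86 CPM, and highest in fibroblasts, at 28.4 and 27.6 CPM. Fibroblasts exceeded SMCs by 1.80 ± 0.16 on the log2 scale (adjusted p = 5.37e-09), a fold change of 3.48. Mesothelial cells followed fibroblasts at 23.1 and 17.8 CPM. Endothelial cells (17.6 and 11.5 CPM), myeloid cells (12.6 and 11.2 CPM) and lymphocytes (12.7 and 10.6 CPM) overlapped, and lymphocytes, the lowest of these, still exceeded SMCs (adjusted p = 0.0277).

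Smad2 (chr18:76241580-76310963, plus strand) varied little. Its mean level ran from 21.9 ± 1.5 CPM in SMCs to 35.0 ± 3.84 CPM in lymphocytes, and of the 5 steps in the order only that from myeloid to endothelial cells passed (adjusted p = 0.0427). The CPM ranges of that step overlapped. Fibroblasts held 28.9 and 30.5 CPM against 20.9 and 23.0 CPM in SMCs, a difference of 0.38 ± 0.12 on the log2 scale (adjusted p = 0.0137). With Smad3 low and Smad2 nearly level, SMCs held 2.5 and 3.35 Smad2 UMIs per Smad3 UMI, whereas fibroblasts held 1.02 and 1.11.

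Smad4 (chr18:73639009-73703780, minus strand), the common mediator, was the most even of the 9. SMCs held 61.2 and 61.8 CPM, fibroblasts 77.3 and 78.0 CPM, endothelial cells 69.6 and 70.8 CPM and myeloid cells 63.7 and 59.1 CPM. Lymphocytes (57.7 and 42.3 CPM) and mesothelial cells (57.9 and 87.2 CPM) differed more between the aortas. None of the 5 steps in the order passed. The difference between fibroblasts and SMCs was 0.27 ± 0.12 on the log2 scale with an adjusted p of 0.0553, and with the aorta as a block it passed (adjusted p = 0.041).

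The inhibitory SMADs were highest in endothelial cells. Smad6 (chr9:63953076-64022059, minus strand) stood at 79.0 and 109.6 CPM there, against 25.1 and 22.7 CPM in SMCs, 24.8 and 20.8 CPM in mesothelial cells and 15.1 and 19.0 CPM in fibroblasts. Lymphocytes (1.33 and 3.89 CPM) and myeloid cells (1.18 ± 0.037 CPM) rested on 4 to 7 UMIs per aorta. The endothelial values lay above every other sum, and the excess over SMCs was 1.77 ± 0.15 on the log2 scale (adjusted p = 8.43e-10) and over fibroblasts 2.35 ± 0.16 (adjusted p = 4.64e-11).

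Smad7 (chr18:75367529-75395935, plus strand) reached 195 and 238 CPM in endothelial cells, with lymphocytes next at 89.4 and 90.7 CPM. SMCs (57.2 and 70.0 CPM) and fibroblasts (64.7 and 51.7 CPM) overlapped (adjusted p = 0.240), and mesothelial (14.9 and 14.9 CPM) and myeloid cells (12.9 and 10.9 CPM) were lowest. Endothelial cells exceeded lymphocytes (adjusted p = 7.43e-07), and lymphocytes exceeded SMCs (adjusted p = 0.00199). Unlike Smad6, Smad7 was therefore well represented in lymphocytes, which held 67 and 23.3 Smad7 UMIs per Smad6 UMI against 2.47 and 2.17 in endothelial cells.

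Pmepa1 (chr2:173224458-173276533, minus strand), the membrane inhibitor of SMAD2 and SMAD3, was by far the most counted member. In SMCs it stood at 1148 and 1057 CPM, more than the 259 and 266 CPM of all 8 Smad genes together. Fibroblasts held 720.4 and 553 CPM, endothelial cells 359.6 and 353 CPM, myeloid cells 120.1 and 119.8 CPM, lymphocytes 92.1 and 99.04 CPM and mesothelial cells 59.0 and 57.5 CPM. Every step of this order passed the test and no neighbouring ranges overlapped. SMCs exceeded fibroblasts by 0.85 ± 0.15 (adjusted p = 4.68e-05) and endothelial cells by 1.82 ± 0.16 (adjusted p = 1.37e-09) on the log2 scale. The lymphocyte level was 8.67% of that in SMCs, and the 6 SMC markers stood there at 3.16 to 4.26% of their SMC level. In mesothelial cells Pmepa1 stood at 5.28% of its SMC level and the markers at 0.951 to 11.2%, and the part of free RNA in these low levels was not tested.

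Between SMCs and fibroblasts, 3 of 9 members were higher in SMCs (Smad9, Smad6 and Pmepa1), where 24.1% of all genes tested were, and 3 were higher in fibroblasts (Smad3, Smad5 and Smad2), where 30.2% were. Smad1, Smad4 and Smad7 did not pass (Smad7 did without the fibroblast sum of aorta 1, adjusted p = 0.043, Smad1 did with DESeq2, adjusted p = 0.0397, and Smad4 did under 7 alternatives, adjusted p from 3.07e-05 to 0.0459), and the median over the members was -0.12 against -0.08 over all genes on the log2 scale (SMCs minus fibroblasts). Of all calls in this pair 44.4% were higher in SMCs with edgeR and 27.5% with DESeq2. Smad6 rested on the smallest of the SMC differences (0.58 ± 0.16, adjusted p = 0.00437), which did not pass with DESeq2 (0.31, adjusted p = 0.223) nor without the SMC sum of aorta 1 (adjusted p = 0.0585) or the fibroblast sum of aorta 1 (adjusted p = 0.105). Smad2 did not pass without the SMC sum of aorta 1 (adjusted p = 0.137), without either fibroblast sum (adjusted p = 0.0577 and 0.0735) or with called doublets kept (adjusted p = 0.0815).

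Between SMCs and endothelial cells, 2 members were higher in SMCs (Smad9 and Pmepa1), against 26.4% of all genes tested. In endothelial cells 4 were higher (Smad6, Smad7, Smad3 and Smad5), against 26.9%. Smad3 exceeded SMCs by 0.75 ± 0.22 (adjusted p = 0.00628) and Smad5 by 0.41 ± 0.14 (adjusted p = 0.0211) on the log2 scale. Both calls were lost when cells needed at least 5000 UMIs (adjusted p = 0.307 and 0.601) and without the endothelial sum of aorta 1 (0.353 and 0.227) or the SMC sum of aorta 2 (0.0534 and 0.0716). Smad5 also lost its call without the SMC sum of aorta 1 (0.0926), without a filter on low genes (0.0761) and without erythroid cells (0.0516). Of all calls in this pair 49.5% were higher in SMCs with edgeR and 36.4% with DESeq2.

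Between endothelial cells and fibroblasts, 2 members were higher in endothelial cells (Smad6 and Smad7), against 20.7% of all genes tested, and 4 were higher in fibroblasts (Smad5, Smad9, Smad3 and Pmepa1), against 24.3%. Pmepa1 was 0.96 ± 0.16 and Smad3 1.05 ± 0.20 higher in fibroblasts on the log2 scale (adjusted p = 2.00e-05 and 1.55e-04). The Smad9 difference (1.44 ± 0.45, adjusted p = 0.0134) did not pass without the fibroblast sum of aorta 1 (0.153) or the endothelial sum of aorta 1 (0.151), nor with at least 5000 UMIs per cell (0.211). The endothelial sums held 5 and 6 Smad9 UMIs. These 3 comparisons share sums, as each cell type enters 2 of them.

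**Figure D2:**
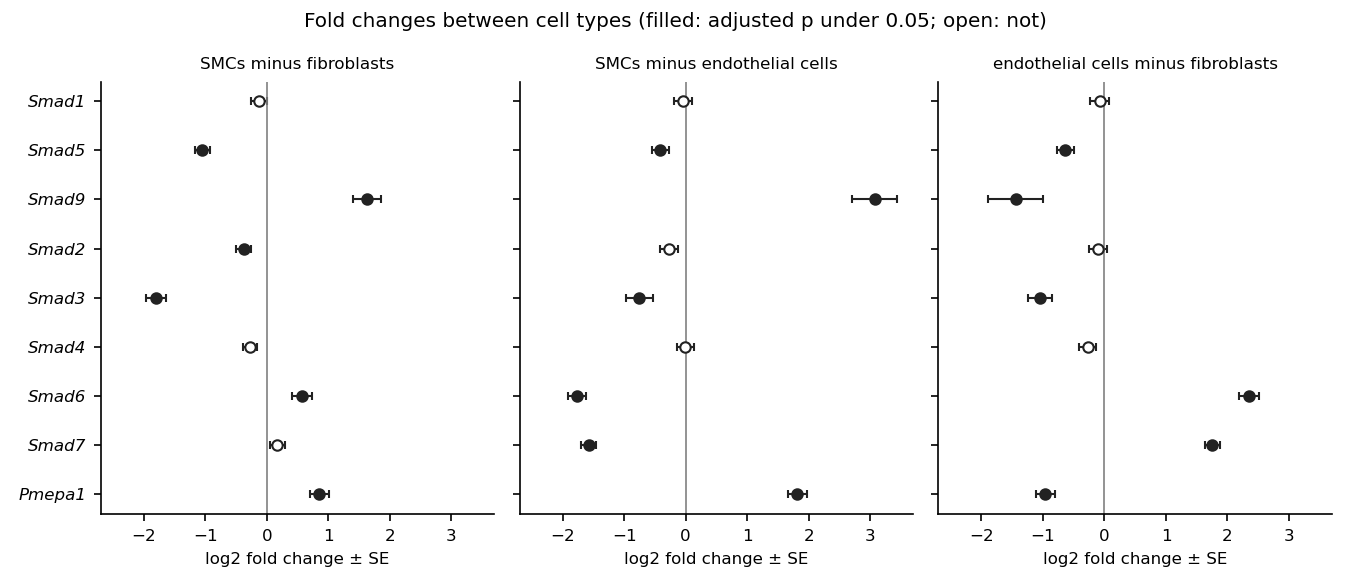
Log2 fold change of each gene (x axes, ± SE from the model) for SMCs minus fibroblasts, SMCs minus endothelial cells and endothelial cells minus fibroblasts, with filled circles for an adjusted p under 0.05. Smad9 and Pmepa1 lie right of 0 in both SMC panels, and Smad6 and Smad7 lie far left of 0 in the middle panel and right of 0 in the last.

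When all Smad UMIs of a cell type were taken as 100%, the make-up differed most in the inhibitory share. Smad6 and Smad7 together made up 57.5% (exact 95% interval 55.0 to 60.04) and 62.0% (59.5 to 64.6) of the Smad UMIs of endothelial cells, 31.8% (30.4 to 33.2) and 34.8% (33.2 to 36.5) in SMCs, 24.3% (22.8 to 25.9) and 22.9% (21.1 to 24.8) in fibroblasts and 7.60% (6.09 to 9.35) and 7.34% (5.34 to 9.80) in myeloid cells. In lymphocytes they made up 39.5% (35.8 to 43.2) and 44.97% (39.9 to 50.1), and in mesothelial cells 17.1% (13.7 to 21.1) and 14.5% (10.3 to 19.4). Endothelial cells held 2.07 and 2.45 inhibitory UMIs per receptor-regulated UMI, lymphocytes 1.11 and 1.29, and SMCs 0.713 and 0.829. Smad2 and Smad3 made up 11.3 and 11.2% in SMCs, 10.01 and 7.42% in endothelial cells and 17.5 and 18.8% in fibroblasts. The BMP branch outnumbered the TGF-β branch 2.95 and 2.75 times in SMCs and 1.98 and 1.76 times in fibroblasts, whereas lymphocytes had the opposite order (0.616 and 0.714 times). The intervals cover counting error only.

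**Figure D3:**
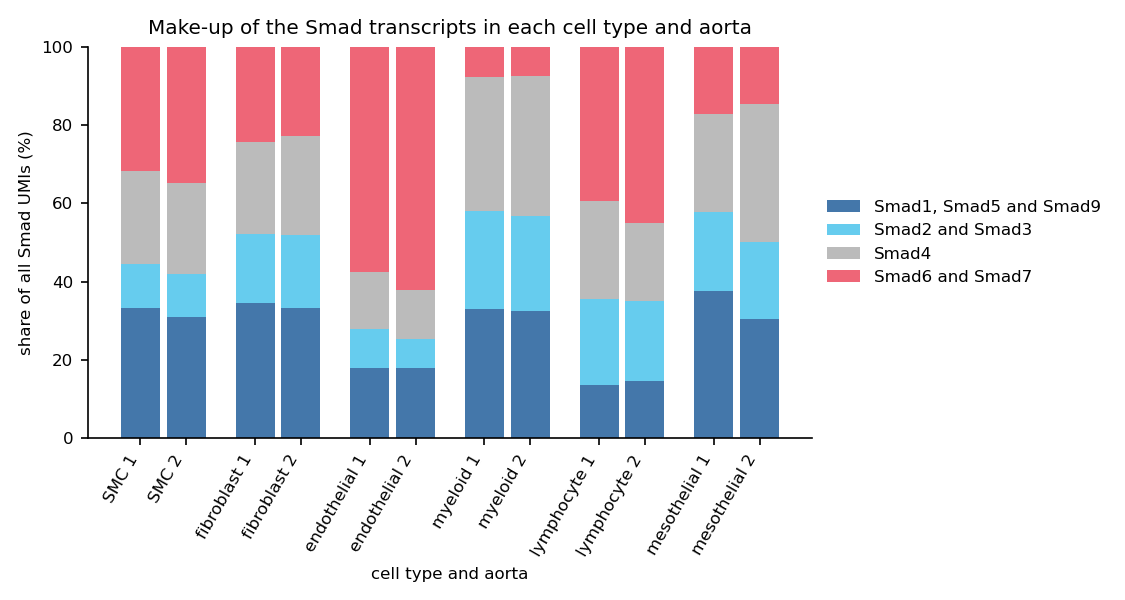
Stacked bars give the share of all Smad UMIs (y axis, percent) taken by the BMP-branch, TGF-β-branch, common and inhibitory SMADs in each cell type and aorta (x axis). The inhibitory share (top segment) is 57.5 and 62.0% in endothelial cells and 7.60 and 7.34% in myeloid cells.

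Because SMCs gave the most RNA, they also supplied much of each member's total. They held 42.3 and 43.8% of all UMIs in the analysed cells, but 75.6 and 77.1% of the Smad9 UMIs and 68.8 and 71.4% of the Pmepa1 UMIs. Their shares of Smad1 (45.3 and 45.5%), Smad4 (39.7 and 41.2%) and Smad7 (38.0 and 42.4%) were close to their share of all RNA, and of Smad3 they held 23.2 and 22.6%. Fibroblasts, with 22.9 and 23.4% of all UMIs, held 42.9 and 48.4% of Smad3. Endothelial cells, with 7.76 and 9.15% of all UMIs, held 28.4 and 39.0% of Smad6 and 23.8 and 30.1% of Smad7.

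Per cell, most members were detected rarely. After every cell had been thinned to 1000 UMIs, Pmepa1 was found in 62.9 and 59.99% of SMCs, 46.6 and 40.6% of fibroblasts, 27.9 and 28.9% of endothelial cells and 5.95 and 6.61% of lymphocytes. Smad7 was found in 17.6 and 19.9% of endothelial cells, 9.003 and 9.09% of lymphocytes, 4.04 and 6.19% of SMCs and 1.43 and 0.883% of myeloid cells. Smad6 was found in 6.88 and 9.04% of endothelial cells, and in 0 and 0.275% of lymphocytes and 0.220 and 0% of myeloid cells. Unthinned, the shares were 92.1 and 91.9% of SMCs and 19.9 and 17.1% of lymphocytes for Pmepa1, 44.1 and 45.8% of endothelial and 6.92 and 5.30% of myeloid cells for Smad7, and 24.5 and 25.5% of endothelial cells and 0.643 and 1.38% of lymphocytes for Smad6. At this full depth, with medians of 7626 and 7418 UMIs, 9.48 and 8.25% of SMCs had a Smad9 UMI. No lymphocyte did (0 of 622 and 0 of 363, which allows up to 0.482 and 0.826% of cells with a UMI and sets no limit on cells that express the gene), at medians of 4091.5 and 3895 UMIs.

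Within the endothelial cells 1 cluster ran against the rest. It was led by Ccl21a, Mmrn1 and Nts, the first a chemokine known from lymphatic vessels, and held 47 and 76 cells. Its Smad1 level was 198 and 221 CPM and its Smad5 level 108 and 114 CPM. In the largest endothelial cluster, led by Emcn, Cytl1 and Pecam1 (468 and 416 cells), Smad1 was 42.8 ± 10.7 CPM and Smad5 25.8 ± 0.851 CPM. The inhibitory SMADs had the opposite order. No Smad6 UMI was counted in the Ccl21a-led cluster, whereas the Emcn-led cluster held 107 ± 25.3 CPM, at least 5.96-fold more against a limit of 3 UMIs per library. Smad7 stood at 6.00 and 7.88 CPM (1 and 2 UMIs) in the first and at 227 ± 26.1 CPM in the second. The cluster led by Gpihbp1, Rbp7 and Tcf15 (41 and 49 cells) lay between for Smad6 (33.5 ± 20.1 CPM) and Smad7 (165 ± 12.0 CPM). Clusters were made without the members, and these values are a description with no test, as the clusters were picked out after their levels had been seen.

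**Figure D4:**
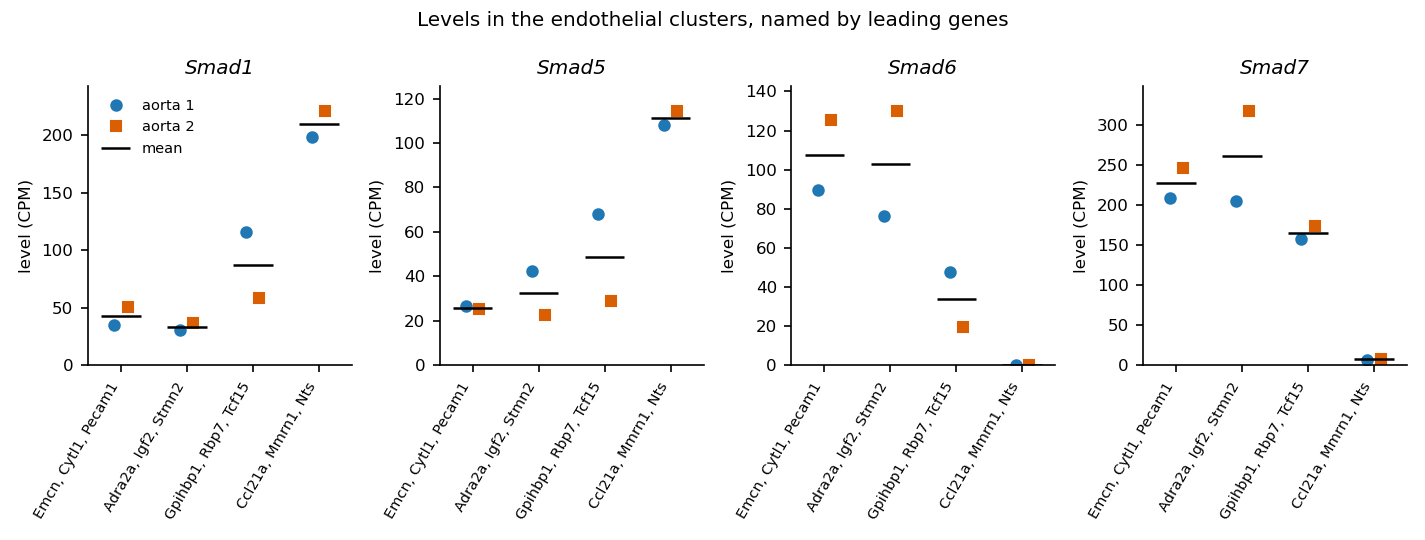
Levels (y axes, CPM) of Smad1, Smad5, Smad6 and Smad7 in the 4 endothelial clusters, each named by its 3 leading genes (x axes), with circles for aorta 1, squares for aorta 2 and lines for the mean. The cluster led by Ccl21a is highest for Smad1 and Smad5 and lowest for Smad6 and Smad7 in both aortas.

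Other types were mixed in the same way. Among fibroblasts, Pmepa1 ran from 914 ± 79.05 CPM in the cluster led by Fmod, Cpxm2 and Dio2 to 276 ± 49.1 CPM in that led by Pla1a, Dact2 and Aldh1a3, with Smad7 at 79.8 ± 2.39 and 27.8 ± 8.34 CPM in the same order. Among lymphocytes, Smad7 was 168 ± 29.04 CPM in the cluster led by Ms4a4b and Ccl5, genes known from T cells, 51.1 ± 11.3 CPM in the B-cell gene cluster led by Igkc and Cd79a, and 19.5 ± 9.47 CPM in the cluster led by Rag1. Among myeloid cells, Pmepa1 was 439 ± 69.8 CPM in the cluster led by Mmp12, H2-M2 and Zmynd15 against 76.7 ± 12.9 CPM in the largest, led by Mrc1, Folr2 and F13a1, and Smad7 was 54.1 ± 4.74 against 4.25 ± 1.49 CPM. These too are descriptions without a test.

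SMCs were clustered again without the members, and 12 subsets with at least 10 cells in each aorta were compared. Of these, 1 was led by the fibroblast genes Dcn and Lum (3 of its 10 leading genes were markers of another class) and 1 of 15 and 13 cells by Cd74 and Cd52 (2 of 10). Without the subsets led by markers of another class the same number of members, 6, differed. Of the 9 members, 6 differed among the subsets (F test, adjusted p = 1.64e-07 for Smad9, 2.19e-06 for Pmepa1, 6.34e-05 for Smad7, 4.81e-04 for Smad4, 0.00103 for Smad1 and 0.00138 for Smad6), where 52.5% of 10092 genes did. Smad3 (adjusted p = 0.0584), Smad5 (0.235) and Smad2 (0.861) did not pass. The Smad3 result was unstable, as its adjusted p ran from 0.0116 to 0.221 and passed under 12 of 35 alternatives. Smad5 passed under 2 alternatives (clustering resolution 0.5 and DESeq2, lowest adjusted p = 0.0436), and Smad1 did not pass under 2 (no limits on UMIs, and called doublets kept).

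The subset led by Hhip, Chrdl2 and Krt15 (106 and 85 cells) had the highest mean of Smad9, Smad4, Smad6, Smad7 and Pmepa1 among the 12. Its Smad9 level was 61.0 and 35.0 CPM, Smad7 109 and 126 CPM, Smad6 49.0 and 43.8 CPM, Smad4 94.1 and 109 CPM and Pmepa1 1345 and 1441 CPM. It rests on 46 and 20 Smad9 UMIs, and 1 of its 10 leading genes is a marker of another class. The subset led by Fbln1, Prss12 and Gng2, whose leading genes include Msx2 and Dlx6 (243 and 237 cells), was next for Smad9 (29.2 ± 3.79 CPM) and Smad6 (38.1 ± 3.44 CPM). Pmepa1 ranged less, from 714 ± 5.10 CPM in the subset led by Pln, Pappa2 and Gm37800 to the 1393 ± 68.0 CPM of the Hhip-led subset, while Smad7 stood at 93.9 ± 14.7 and 117 ± 12.3 CPM in the same order. The highest Smad1 mean was in another subset, led by Nrn1, Scin and Tfap2b (66.8 ± 10.99 CPM).

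**Figure D5:**
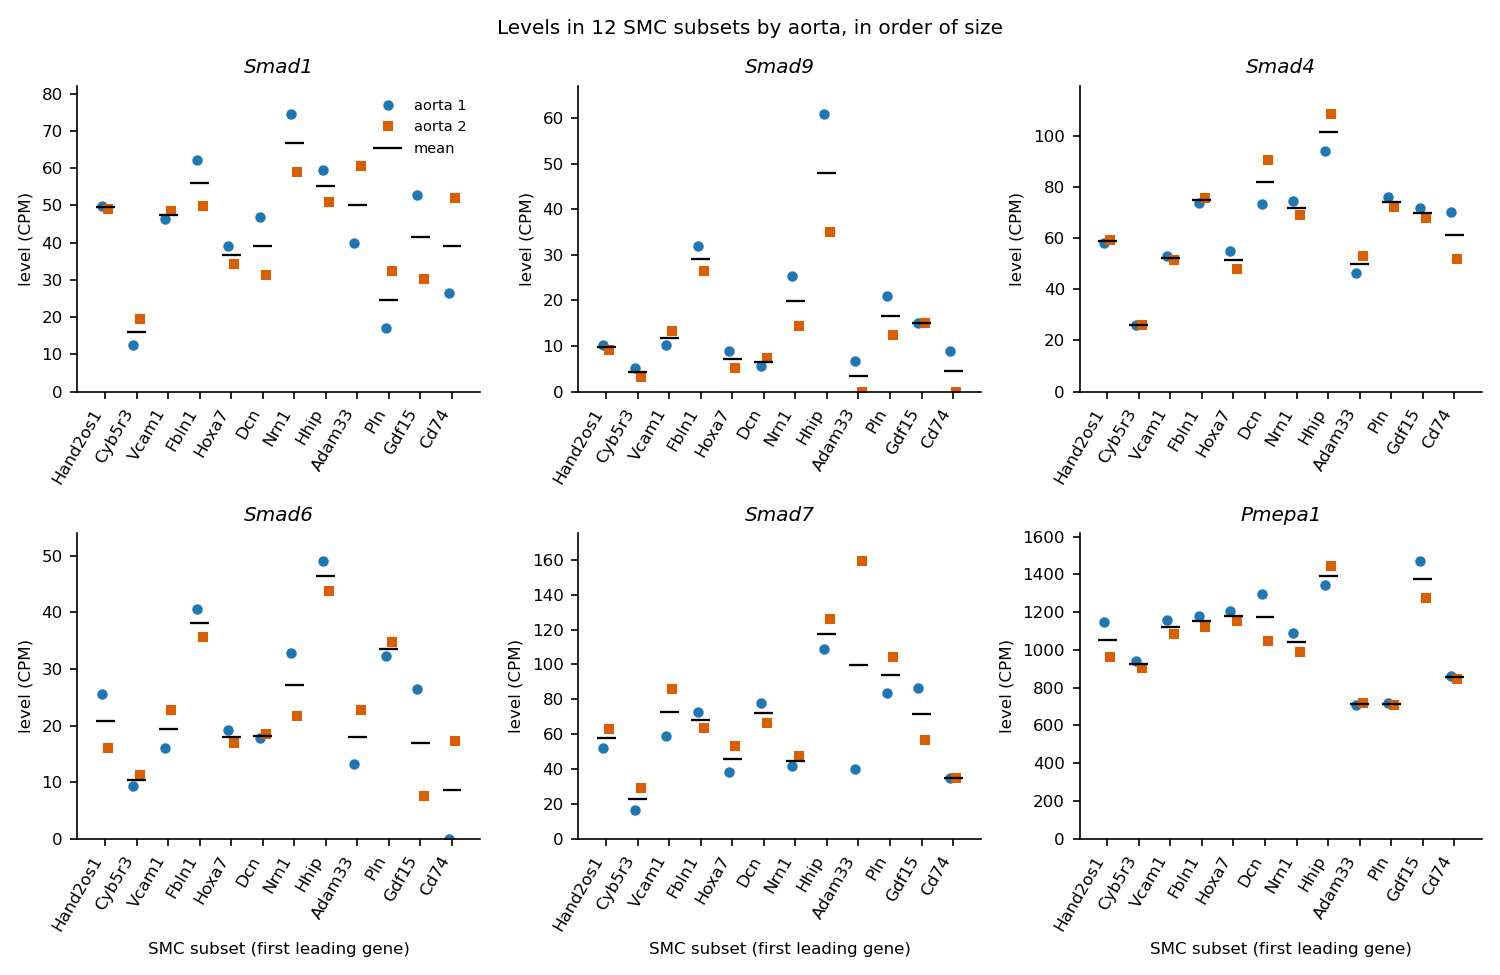
Levels (y axes, CPM) of the 6 members that differed among 12 SMC subsets, each named by its first leading gene (x axes, in order of size), with circles for aorta 1, squares for aorta 2 and lines for the mean. The Hhip-led subset has the highest mean in all panels but Smad1, where the Nrn1-led subset does.

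Pairs among the 3 largest subsets were tested in the same fit. The largest, led by Hand2os1, Hand2 and Atf3 (589 and 313 cells), differed from that led by Vcam1, Lgals3 and Timp1 in 0 of 9 members by edgeR (0 also at an unadjusted p under 0.05), where 3.03% of genes did. It differed in 3 members from the subset led by Cyb5r3, Atf5 and Des (20.9% of genes), being higher in Smad1 (1.28 ± 0.28), Smad7 (0.97 ± 0.30) and Smad4 (0.76 ± 0.21) on the log2 scale (adjusted p = 8.27e-04, 0.0168 and 0.00683). The Vcam1-led subset differed from the Cyb5r3-led one in 2 members, where 18.5% of genes did in either direction. Both were higher in the Vcam1-led subset, Smad7 by 1.30 ± 0.30 (adjusted p = 0.00136) and Smad1 by 1.19 ± 0.29 (adjusted p = 0.00266). The cells of the Cyb5r3-led subset had a median of 1766 UMIs, against 9426 in the Hand2-led subset, and a median mitochondrial share of 7.01 against 5.00%. Its Pmepa1 level was 923 ± 24.3 CPM against 1053 ± 132 CPM. In the fit, which scales the sums differently, the sign was opposite, with Pmepa1 0.21 ± 0.13 higher in the Cyb5r3-led subset on the log2 scale, and the difference did not pass (adjusted p = 0.275). The part of depth and RNA quality in these differences was not tested.

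Subsets that carry genes of body position were compared as pairs picked after their leading genes had been seen. The Dlx6 and Msx2 subset differed from the Hand2 subset in 2 members, where 20% of genes did in either direction. Both were higher in the Dlx6 subset on the log2 scale, Smad9 by 1.36 ± 0.25 (adjusted p = 5.42e-05) and Smad6 by 0.60 ± 0.21 (adjusted p = 0.0342). From the subset led by Hoxa7, Hoxb7 and Hoxb6 the Dlx6 subset differed in the same 2 genes, where 17.2% of genes did in either direction. Both were again higher in the Dlx6 subset, Smad9 by 1.82 ± 0.32 (adjusted p = 2.94e-05) and Smad6 by 0.89 ± 0.25 (adjusted p = 0.00818). The Hand2 and Hoxa7 subsets differed in 0 of 9 members by edgeR, with Smad1 alone at an unadjusted p under 0.05, where 1.93% of genes were called. Smad9 levels per aorta were 31.9 and 26.5 CPM in the Dlx6 subset, 10.2 and 9.16 CPM in the Hand2 subset and 8.89 and 5.18 CPM in the Hoxa7 subset, and the Dlx6 values overlapped neither of the others.

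The surrounding pathway was followed with lists of 55 genes. Of 12 receptors, 3 were higher in SMCs and 8 in fibroblasts, and the list median was -0.72 (SMCs minus fibroblasts, log2) against -0.08 for all genes, of which 24.1% were higher in SMCs and 30.2% in fibroblasts. Of 8 ligands 3 were higher in each, and of 13 SMAD regulators 3 were higher in SMCs and 4 in fibroblasts. Of 10 nuclear partners, 9 were tested (Foxh1 had no UMI), with 1 higher in SMCs and 5 in fibroblasts. Among 6 TGF-β targets 3 were higher in SMCs and 2 in fibroblasts, and among 6 BMP targets 4 were higher in SMCs and 0 in fibroblasts by edgeR. The named genes higher in SMCs were Wwp2, a ubiquitin ligase (274 ± 19.8 against 34.3 ± 2.12 CPM), Bmpr1b, a type I BMP receptor (40.7 ± 3.63 against 6.96 ± 0.650 CPM), and Inhba, a subunit of activin (194 ± 16.5 against 36.0 ± 12.0 CPM). Higher in fibroblasts were the matrix protein gene Tgfbi (1098 ± 70.4 against 7.40 ± 0.995 CPM), the ligands Bmp4 (121 ± 14.3 against 8.24 ± 1.36 CPM) and Bmp6 (6.83 ± 2.16 against 1.14 ± 0.332 CPM), and the transcription factor gene Bhlhe40 (24.1 ± 3.6 against 3.55 ± 0.472 CPM).

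Against endothelial cells, 3 receptors were higher in SMCs and 6 in endothelial cells, 4 and 3 ligands, 4 and 5 regulators, 0 and 3 nuclear partners, 4 and 2 TGF-β targets and 3 and 1 BMP targets in the same order, where 26.4 and 26.9% of all genes were called (49.5% of calls higher in SMCs with edgeR, 36.4% with DESeq2). Endothelial cells were higher in Bmp4 (1069 ± 68.8 CPM), Bmp6 (464 ± 18.2 CPM), Bhlhe40 (44.5 ± 3.08 CPM) and the co-receptor gene Eng (489 ± 2.63 against 37.5 ± 1.48 CPM in SMCs). SMCs were higher in the growth inhibitor gene Cdkn2b (6.64 ± 0.202 CPM, against 1 UMI in each endothelial sum), in Id4 (119 ± 4.92 against 8.09 ± 5.85 CPM), in Ccn2 (1889 ± 209 against 151 ± 33.1 CPM) and in Bmpr1b. No Bmpr1b UMI was counted in endothelial cells, so SMCs were at least 34.3-fold higher. The adjusted p of each named gene was at most 2.25e-05 in this pair.

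Between endothelial cells and fibroblasts, 5 and 5 receptors, 3 and 4 ligands, 3 and 1 regulators, 1 and 2 nuclear partners, 1 and 4 TGF-β targets and 2 and 1 BMP targets were higher, endothelial cells first, where 20.7 and 24.3% of all genes were called. Endothelial cells held more Tgfb1 (107 ± 0.578 against 23.5 ± 4.81 CPM), Bmp4, Bmp6 and Eng. Fibroblasts held more Tgfb3 (93.7 ± 12.3 against 6.06 ± 0.740 CPM), Ltbp2, which encodes a protein of microfibrils (116 ± 26.9 against 11.9 ± 0.468 CPM), and Tgfbi, and at least 5.87-fold more Bmpr1b.

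Genes with the most similar profile were sought by Pearson's r of log2(CPM + 1) over all 14 sums of a type and aorta, which share libraries and include the shallow erythroid sums. The closest were Igsf8 for Smad1 (r = 0.988), Prkcsh for Smad5 (0.992), Chpt1 for Smad9 (0.976), Ccl25 for Smad2 (0.998), Dnajb11 for Smad3 (0.986), Rere for Smad4 (0.999), Wwtr1 for Smad6 (0.944), Smco4 for Smad7 (0.974) and Arl4a for Pmepa1 (0.975). Without the erythroid sums (12 sums) the closest gene was another one for all 9 members. For Smad6 they were then Crip2, Cyb561 and Dab2ip (r = 0.985, 0.984 and 0.984), for Pmepa1 Cped1, Heyl and Sparcl1 (0.987, 0.983 and 0.980), and for Smad9 Rasl11a, Ccl27a and Chpt1 (0.982, 0.980 and 0.977).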

How the data were processed

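Single-cell libraries of 2 thoracic aortas (3′ chemistry) were deposited as raw UMI counts (genes by cells). The authors obtained the counts with Cell Ranger 4.0.0 and mm10 with eGFP and tdTomato added; their notes also name Seurat 4.0, and strand use was not stated. The gene positions are those of the GENCODE annotation of GRCm38. No annotated gene that overlaps a member was counted separately.

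The members and all lists were chosen with earlier results of these data known. Of 8947 and 6263 deposited cells (47009780 and 30919996 UMIs), cells were kept with over 200 genes, UMIs between 1000 and 25000 and under 10% mitochondrial UMIs (6744 and 4698, where the labels give 6278 and 4300 after filtering). Doublets called with Scrublet were removed (205 and 84 cells, 3.04 and 1.79%). The libraries shared 18 barcodes. Cells were clustered with scanpy 1.11.5 (2000 variable genes, 30 components, 15 neighbours, Leiden at resolution 1) without the members, 55 pathway genes, reporters and mitochondrial genes. Clusters needed 3 markers of a class in 25% of cells and fewer than 2 leading markers of another class, and the names are rebuilt and may differ from the study's.

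UMIs were summed per aorta and type, or per aorta and SMC subset, and tested with edgeR 4.0.16 in R 4.3.3 (TMM, filterByExpr, quasi-likelihood test, Benjamini-Hochberg over all genes tested, threshold 0.05), with cell type as the only term. SEs were derived from each fold change and its F value. On simulated counts with known changes in 200 genes the script was checked before use. The simulated types otherwise shared the same profile, so the check does not cover scaling between types that differ in most genes. P-values measure the spread between the sums of these 2 animals. All sums of one aorta come from the same animal, so the replicate number pairs them. The correlation of same-numbered deviations over 15 pairs of types ran from -0.00899 to 0.193, and a fit with the aorta as a block was an alternative, as were DESeq2 1.42.0, other cell and gene filters, other clustering, and, added after the data were seen, each sum left out in turn, no erythroid cells and no SMC cluster of low depth. Pairs of subsets beyond the 3 largest were also added then. All 9 members are named; from the pathway lists, the 4 genes with the largest fold change in each direction of each pair are named among those past the threshold with at least 20 UMIs in the higher type. A gene this rule also selected is not reported here. For likeness, the 3 genes with the highest r among those of at least 10 CPM were taken.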

Additional observations from a re-analysis of the deposited data

How the results depend on the processing

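Over all alternatives, 0 of 540 recomputed log2 fold changes of members between SMCs, fibroblasts and endothelial cells reversed a called direction, 19 lost and 12 gained significance. The members differing among cell types numbered 8 to 9 and those differing among SMC subsets 5 to 8. Members higher in SMCs than in fibroblasts numbered 2 to 3, in SMCs than in endothelial cells 2, in endothelial cells than in fibroblasts 2, and in fibroblasts than in endothelial cells 3 to 5. Members higher in fibroblasts than in SMCs numbered 5 with DESeq2, which added Smad1 and Smad4, and 2 to 3 with 1 sum left out. Members higher in endothelial cells than in SMCs numbered 2 with at least 5000 UMIs per cell, 2 to 4 with 1 sum left out and 5 with DESeq2, which added Smad2 (adjusted p = 0.00643). DESeq2's scaling moved the median of all genes by -0.15 for SMCs minus fibroblasts and by -0.14 for SMCs minus endothelial cells, and with it 27.5% of calls between SMCs and fibroblasts were higher in SMCs against 44.4% with edgeR (36.4 against 49.5% for SMCs against endothelial cells). The replicate block (aorta) gave 4 members higher in fibroblasts than in SMCs, as Smad4 passed, and changed no other call of a member in these 3 pairs. Without the low-depth SMC cluster (705 cells, median 1754 UMIs, mitochondrial share 7.01%) Smad1 stood at 47.9 ± 2.55 CPM and Pmepa1 at 1111 ± 67.0 CPM in SMCs, and no call changed in the 3 pairs. With 1 aorta left out there are values but no test. Depth limits Smad9 in endothelial cells and Smad6 in myeloid cells and lymphocytes, which rest on 4 to 7 UMIs per aorta.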
